A study of Mus musculus with 29 samples.

Results

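Bc3 is one of 7 B cell subtypes, Bc1 to Bc7, that the authors' deposited annotation gives for mouse blood. Its members are the blood cells with the coarse label Bc and the fine label Bc3, 1866 cells of 18339 B cells (10.2%) and of 51709 blood cells (3.61%), in a series of 106977 cells from 29 libraries. The other 16473 B cells, Bc1, Bc2 and Bc4 to Bc7, are called the other B cells here. The blood came from C57BL/6J males of 8 to 10 weeks, and each library pooled the blood of 2 mice. In the stroke groups the middle cerebral artery, the main artery of the lateral forebrain, was occluded for a time, and controls had sham surgery. There were 4 sham libraries and 4 stroke libraries at day 2, and 3 stroke libraries at day 14. Sham blood was taken at day 2 only, so at day 14 stroke and time since surgery cannot be told apart. All groups share red cell lysis, depletion of cells bearing the red cell marker Ter-119, and 2 inhibitors during isolation, the transcription blocker actinomycin D and the P2X7 antagonist BBG. Single cells were captured in droplets with barcoded beads (Drop-seq).

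B cells carry a membrane antibody, built from a heavy chain such as Ighm (IgM) or Ighd (IgD) and a kappa or lambda light chain, and signal through its partners Cd79a and Cd79b. Most B cells in blood are mature follicular cells, which show IgD and the low-affinity IgE receptor Fcer2a (CD23) and recirculate through lymphoid follicles. Others include recent emigrants from the bone marrow, marginal zone cells and B1 cells, innate-like cells that make natural IgM and are known for low IgD and CD23. Blood shares describe proportions, so more Bc3 cells and fewer cells of other types cannot be told apart.

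The 11 blood libraries held 2360 to 6328 cells and 966914 to 5232660 expected counts, and their Bc3 cells 5993 to 498558 counts. A median Bc3 cell held 466 counts over 358 genes, with 4.45% mitochondrial, and a median other B cell 418 counts, 331 genes and 4.60%. Bc3 cells per library numbered 220, 100, 30 and 210 in sham replicates 1 to 4, then 57, 13, 44 and 123 in stroke day 2 replicates 1 to 4, and 361, 204 and 504 in stroke day 14 replicates 1 to 3. Stroke day 2 replicate 2, with 13 cells, is under the minimum of 20 and enters the shares but not the expression comparisons, which use 10 libraries. Barcodes shared between libraries covered 173 blood cells, 8 of them Bc3. Stroke day 14 replicate 1 stands apart from the other day 14 libraries in what its Bc3 cells express, as described with the results it touches.

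The label B cell was met by the given markers. Cd79a, the signalling partner of the receptor, stood at 766 ± 189.9 CPM in Bc3 (counts scaled to a common total per library) and 979 ± 179.6 in the other B cells (SD, n = 10 libraries), lower in 8 of 10 libraries. Ighm stood at 4337 ± 727 CPM against 3997 ± 425, and was higher in 7 of 10. After each cell was thinned to 300 counts, Ighm was detected in 68.0% of 1557 Bc3 cells, against 63.5% of 13401 other B cells and 8.84% of 6086 T cells (79.5%, 73.7% and 16.7% without thinning, at medians of 466, 418 and 516 counts). Cd79a was detected in 18.6% of thinned Bc3 cells and 24.0% of other B cells. Thinning left out 309 Bc3 and 3072 other B cells.

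Lists of other blood cells differed in their level in Bc3, with the defining neutrophil, monocyte and T cell genes at or near 0. S100a8, the neutrophil calprotectin subunit, was found in 0 of 1557 thinned Bc3 cells (upper 95% Wilson bound 0.246%), Lyz2, the monocyte lysozyme, in 0.064%, and Cd3e, part of the T cell receptor complex, in 0.13%. Summed over whole lists, T cell genes came to 78.3 CPM in Bc3 (26.7 to 183 by library) and 63.5 in the other B cells, and monocyte genes to 54.1 (0 to 96.9) and 40.9. The plasmacytoid dendritic cell list came to 227 CPM (92.8 to 352) against 189, of which Tcf4, an E protein that B cells also express, gave 214 and 171. The conventional dendritic cell list summed to 20.1 CPM (0 to 52.8) against 7.59 and the NK cell list to 16.9 (0 to 52.2) against 13.8. The neutrophil list summed to 1.54 CPM (0 to 14.7) against 1.95, the platelet list to 2.57 (0 to 25.7) against 1.06, and the erythroid list to 0.014 (0 to 0.14) against 1.88. Some genes that set Bc3 apart are abundant in other blood cells too: S100a6 reached 6093 CPM in pooled neutrophils and 2141 in monocytes.

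The subtype labels come from clustering these same cells, so what follows on Bc3 against the other B cells is a description and carries no test. Of 6192 genes at 20 CPM or more in all B cells, 26 (0.42%) were higher in Bc3 by at least 1 on the log2 scale with the same sign in all 10 libraries, and 45 (0.727%) were lower, both read with 20 CPM added to each value. After thinning 14 were higher, and without stroke day 14 replicate 1 the lower genes numbered 81. The median over all 6192 genes was -0.21. S100a6, a calcium-binding protein, had 1506 ± 1062 CPM in Bc3 against 103 ± 58.3 in the other B cells, a log2 ratio of 3.37 ± 0.70 (SD, n = 10). Tppp3, a microtubule-binding protein, had 408 ± 485 against 5.53 ± 11.2, a log2 ratio of 3.33 ± 1.38. Ahnak, a very large scaffold protein under the membrane, had 775 ± 448 against 59.3 ± 37.7, a log2 ratio of 3.23 ± 0.46.

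The spread of these genes between libraries was wide. S100a6 in Bc3 stood at 1616, 2342, 1183 and 754 CPM in sham replicates 1 to 4, at 217, 807 and 1619 in stroke day 2 replicates 1, 3 and 4, and at 394, 2549 and 3576 in stroke day 14 replicates 1 to 3. In the other B cells of the same 10 libraries it ran from 39.8 to 240.5 CPM, so that Bc3 of stroke day 2 replicate 1, the lowest, lay below the highest other-B value. Within every library Bc3 was the higher of the pair. Tppp3 ran from 33.8 CPM in stroke day 2 replicate 1 to 1477 in stroke day 14 replicate 3, and from 0 to 37.2 in the other B cells.

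**Figure D1:**
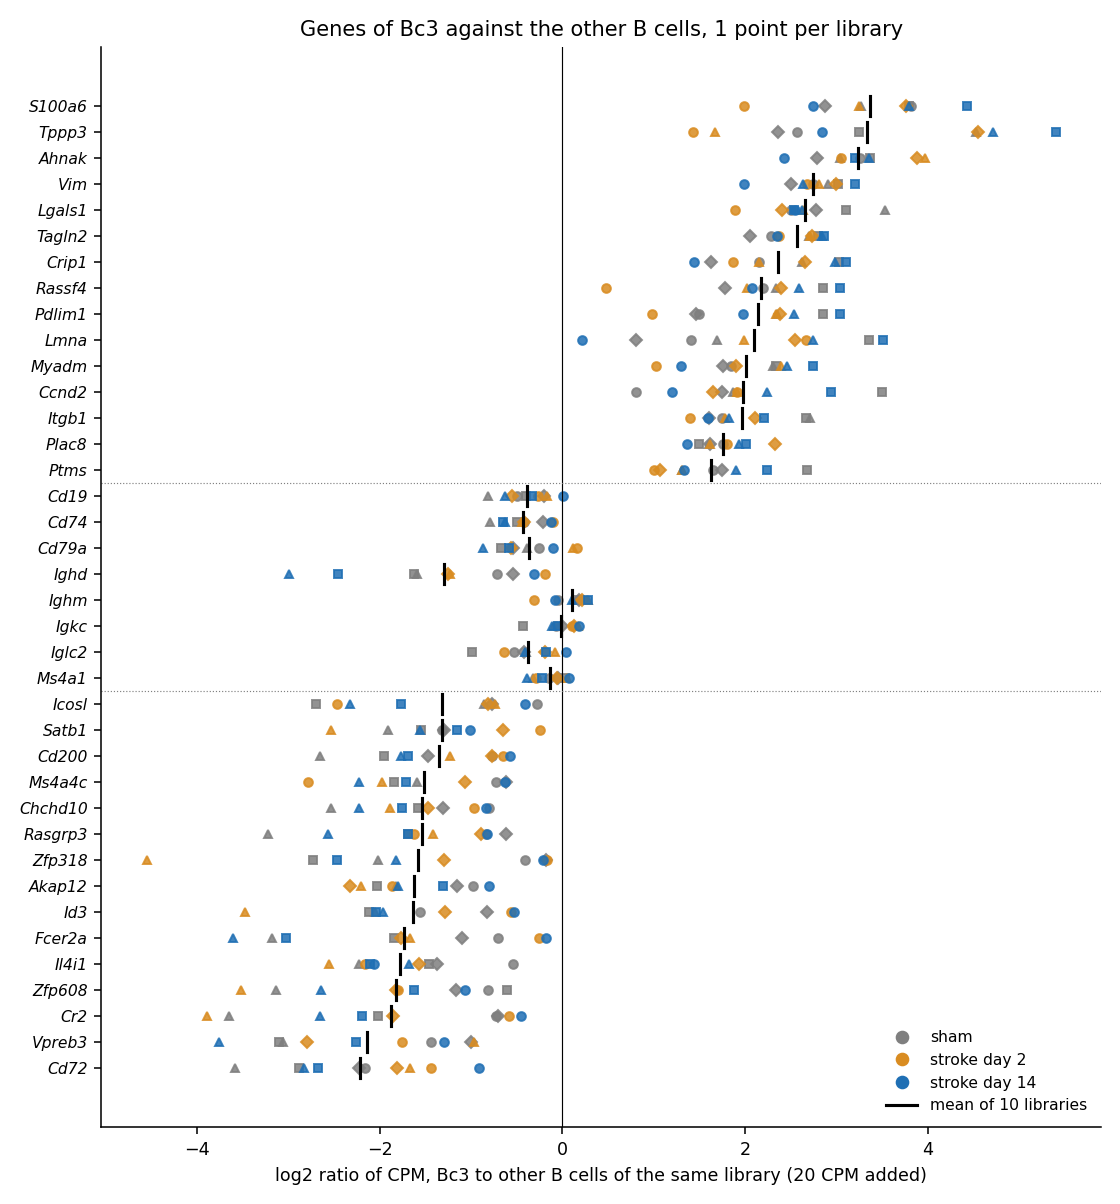
Log2 ratios of CPM in Bc3 to the other B cells of the same library (x axis, 20 CPM added) for the 15 highest genes (top), 8 genes given in any case (middle) and the 15 lowest (bottom). Points are the 10 libraries, coloured by group with the replicate number as shape, and black bars are means; in the top and bottom blocks every point lies on 1 side of 0 because the rule that chose those genes asked for it, and Ighd in the middle lies below 0 in all 10.

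The other 12 of the 15 highest followed. Vim, the intermediate filament vimentin, had 2400 CPM against 329 (log2 ratio 2.75), Tagln2, an actin-binding transgelin, 1003 against 146 (2.57), and Crip1, a small LIM protein, 5461 against 942 (2.36). Crip1 was the most abundant of them. Lgals1, the glycan-binding galectin-1, had 365 against 38.0 (2.65), Pdlim1, an actin-associated PDZ-LIM protein, 383 against 56.9 (2.14), and Itgb1, the beta-1 integrin chain, 333 against 63.9 (1.96). Lmna, the nuclear lamin A/C, had 117 against 4.01 (2.09), and Ccnd2, the G1 cyclin D2, 258 against 41.2 (1.98). Rassf4, with a Ras association domain, had a ratio of 2.17, Myadm, a membrane-raft protein, 2.00, Plac8 1.75, and Ptms, a small acidic nuclear protein, 1.62. Just outside this set lay Il6st, the gp130 cytokine receptor chain, at 1.59, Atp2b1, a plasma membrane calcium pump, at 1.36, and Klf6 at 1.31.

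Cd72, an inhibitory co-receptor, had the lowest ratio of the genes that passed the rule. It had 54.5 ± 47.8 CPM in Bc3 against 271 ± 48.7, a log2 ratio of -2.22 ± 0.79. Vpreb3, related to the surrogate light chain, had 92.1 against 418 (-2.14), Cr2, the complement receptor CD21, 73.7 against 250 (-1.87), and Fcer2a 243 against 636 (-1.73). Fcer2a was uneven: it stood at 722 CPM in Bc3 of stroke day 14 replicate 1 and at 67.6 and 33.2 in replicates 2 and 3, while the other B cells of the 10 libraries ran from 491 to 821. Id3, an inhibitor of E proteins, had -1.64, Zfp318, which is needed for IgD transcripts, -1.58, Rasgrp3, a Ras exchange factor, -1.54, and Satb1, a chromatin organiser, -1.32. Cd200 and Icosl, which signal to receptors on other leukocytes, had -1.35 and -1.31. The remaining members of the 15 lowest were Zfp608 (-1.82), Il4i1, an amino acid oxidase (-1.77), Akap12, a kinase anchor (-1.63), Chchd10, a mitochondrial protein (-1.54), and Ms4a4c (-1.51). Just outside lay Ighd, at -1.29, Tnfrsf13c, the receptor for the survival factor BAFF, at -1.28, and Lgmn at -1.27.

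Bc3 held as much IgM message as the other B cells and less IgD. Ighd stood at 1765 ± 927 CPM in Bc3 and 3738 ± 332 in the other B cells, a log2 ratio of -1.29 ± 0.92, and was lower in 10 of 10 libraries. Per 100 Ighm counts there were 43.8 ± 28.0 Ighd counts in Bc3 (8.98 to 86.2, n = 10) and 96.3 ± 15.1 in the other B cells (77.3 to 115, n = 11). By library, Bc3 had 55.4, 30.8, 22.0 and 64.9 in sham, 86.2, 40.3 and 27.9 in stroke day 2 replicates 1, 3 and 4, and 86.1, 15.9 and 8.98 at day 14. The values of 2 libraries, stroke day 2 replicate 1 and stroke day 14 replicate 1, lie within the range of the other B cells, and the remaining 8 lie below it. In stroke day 2 replicate 1 the other B cells had 79.3, so there Bc3 was the higher of the pair. Among the 7 subtypes Bc3 had the lowest mean, followed by Bc2 at 69.8 ± 12.3, Bc6 at 75.1 ± 20.4 and Bc4 at 78.8 ± 22.5, with the ranges of Bc3 and each of these overlapping. Light chains were ordinary: lambda made up 26.5% ± 2.6 of light chain counts in Bc3 and 32.1% ± 2.4 in the other B cells, where Bc6 alone averaged 79.2%. Igkc differed by -0.02 on the log2 scale. The joining chain Jchain stood at 1.69 CPM in Bc3 and 11.1 in the other B cells, and the plasma cell marker Sdc1 at 0. Of the switched heavy chains, Igha stood at 29.8 CPM against 47.8, Ighg3 at 17.1 against 4.21 and Ighg2b at 6.57 against 4.55.

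The gene lists set these genes beside known B cell programmes. They were drawn up with earlier results of these data known, so the level of a list in Bc3 is a description and supports nothing. Of the 13 genes of the B1 list, 7 stood at 20 CPM or more in all B cells and so could pass. Of these, 4 passed the fold and sign rule, all higher (Ahnak, S100a6, Lgals1 and Tppp3). The list's median log2 ratio was 1.5 against -0.21 over all genes. The summed list came to 3608 CPM in Bc3 (956 to 8271 by library) and 286 in the other B cells (141 to 573). Members that missed the rule in some library were Anxa2, a calcium-dependent membrane binder, at 215 against 16.2 CPM and higher in 7 of 10 libraries, Zbtb32, a transcriptional repressor, at 85.9 against 3.41 and higher in 8, and Bhlhe41, a B1 transcription factor, at 94.0 against 14.3 and higher in 9. The classic B1a surface marker Cd5 stood at only 5.92 CPM against 1.57, Spn (CD43) at 24.9 against 12.6 and Itgam (CD11b) at 3.01 against 1.10. Cd5, Spn and Itgam were thus scarce in both, with the higher mean in Bc3. The remaining members, Plscr1, Fcrl5 and Ctla4, are not given singly. From pooled CPM, 9 of the 13 list genes were higher in Bc3 by at least 1 on the log2 scale, and 0 were lower by as much. The cells are called Bc3 throughout.

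Counts in the lists that follow stand beside a background of 0.727% of 6192 genes lower, 0.42% higher and a median of -0.21, counts that moved as given above. In the B cell identity list 2 of 18 genes were lower (Cd72 and Spib) and none higher, with a median of -0.38. Pax5, the B lineage factor, stood at 249 CPM against 399 and Ebf1 at 222 against 367. In the mature follicular list 2 of 12 were lower (Fcer2a and Ighd), while Cxcr5, the follicle-homing receptor, stood at 405 against 274. In the transitional list 4 of 10 measured genes stood at 20 CPM or more and so could pass. Of these, 2 were lower (Vpreb3 and Spib), while Rag1 and Rag2 were at 0. The marginal zone list, where 6 of 9 measured genes could pass, split, with Plac8 higher and Cr2 lower. Its member Mzb1, an antibody-folding chaperone, stood at 573 against 398 CPM and was higher in 10 of 10 libraries without reaching the fold.

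MHC class II genes, which present antigen to T cells, had a median of -0.43 over 12 genes, of which H2-Oa passed the rule. Cd74, the invariant chain, stood at 13544 CPM against 17878 and was lower in 10 of 10 libraries, as was Ciita, the class II master regulator, at 83.9 against 168. Of 12 survival genes, 8 of them at 20 CPM or more, only Tnfrsf13c passed, lower, beside Tnfrsf13b (TACI) at 248 against 409. Of 14 homing genes Itgb1 passed, higher. In that list Cd44, which binds hyaluronan, stood at 120.5 against 32.6 CPM, Itgb7 at 241 against 146 and Ccr6 at 45.7 against 98.3. In the interferon, age-associated, plasma cell, germinal centre, early activation, proliferation and glucocorticoid lists 0 genes passed. Only genes at 20 CPM or more in all B cells could pass. These were 7 of 15 measured interferon genes, 2 of 8 age-associated, 5 of 11 plasma cell and 1 of 7 germinal centre. They were 12 of 20 early activation, 4 of 12 proliferation and 7 of 12 glucocorticoid genes. The age-associated list, which shares Zbtb32 and Fcrl5 with the B1 list, summed to 219 CPM in Bc3 (82.9 to 542 by library) against 76.1 (34.6 to 169). The interferon list had a median log2 ratio of -0.32, though its member Ly6a (Sca-1) stood at 678 against 331 CPM, higher in 10 of 10 libraries. The early activation list had a median of -0.02, though its member Fos, an immediate early gene, stood at 238 against 69.9, higher in 9.

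**Figure D2:**
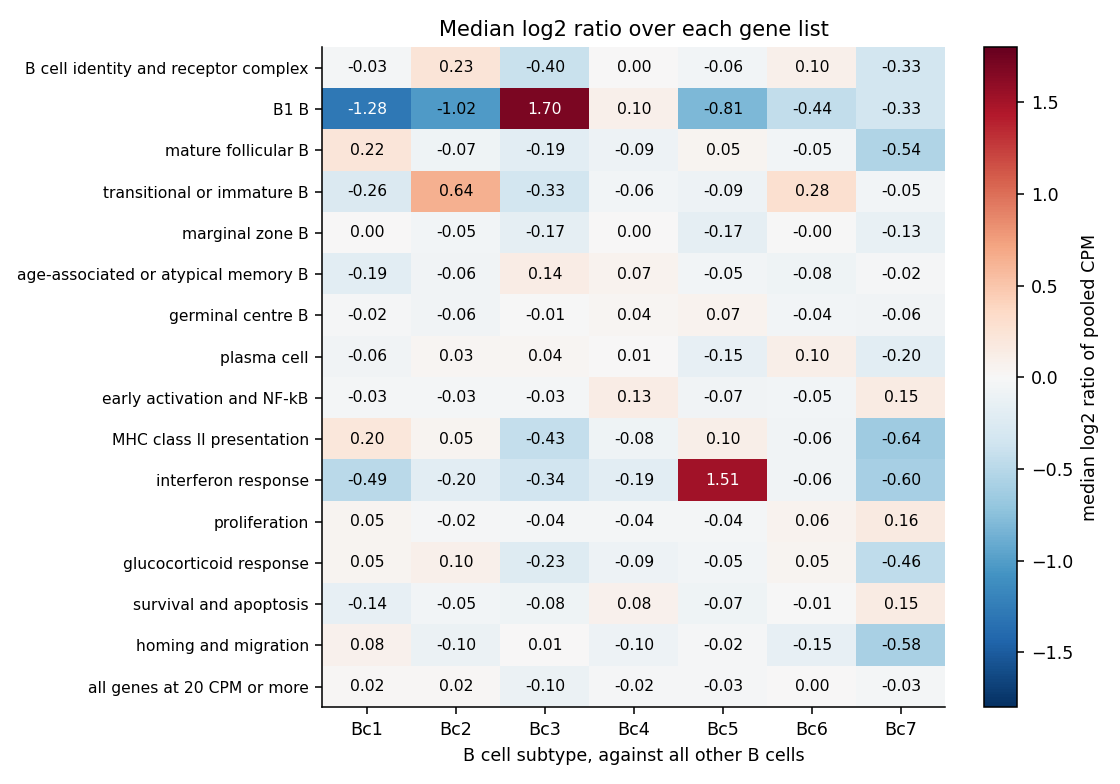
Median log2 ratio of pooled CPM over each gene list (rows) for each B cell subtype against all other B cells (columns), with the values printed and coloured. The B1 list stands at 1.70 in Bc3 and between -1.28 and 0.10 in the others, and the last row gives all genes at 20 CPM or more. The lists were drawn up with earlier results of these data known, and pooled CPM weight each library by its counts.

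The subtypes nearest to Bc3 on these genes differed by gene. Against Bc4 alone the log2 ratio of Plac8 was 0.52, of Ccnd2 1.15, of Itgb1 1.16 and of Rassf4 1.32, while S100a6 kept 2.64. Against Bc7, a small subtype of 218 cells, Ccnd2 was lower in Bc3 (-0.76) and Lmna was 0.62. Of the 15 lowest, 4 turned higher in Bc3 against Bc7: Icosl (0.96), Zfp608 (0.24), Akap12 (0.17) and Cd200 (0.13). The B1 list had a pooled median of 1.70 in Bc3, 0.10 in Bc4 and -0.33 in Bc7. Pooled CPM weight each library by its counts, and stroke day 14 replicate 3 gave 498558 of the 1261630 counts of Bc3.

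At a fixed 300 counts per cell the same genes were detected in different shares of Bc3 and other B cells. None of those given here separated single cells. S100a6 was detected in 35.5% of Bc3 cells and 2.58% of other B cells (45.1% and 4.42% without thinning), Vim in 45.4% and 8.06%, and Ahnak in 21.3% and 1.33%. Tppp3 was detected in 14.0% of Bc3, 0.14% of other B and 0.049% of T cells. Crip1, at 65.4% of Bc3 and 21.6% of other B, was also found in 21.7% of T cells. Ighd was detected in 31.9% of Bc3, 61.7% of other B and 0.016% of T cells. These shares pool all libraries, and 476 of the 1557 Bc3 cells came from stroke day 14 replicate 3. By library they differed widely, as among Bc3 cells with 300 to under 500 deposited counts. There Tppp3 ran from 0% in sham replicate 4 to 27.7% in stroke day 14 replicate 3. S100a6 ran from 3.45% in stroke day 2 replicate 1 to 53.0% in stroke day 14 replicate 3. At least 2 genes of the B1 list were detected together in 26.0% of Bc3 cells (405 of 1557), in 2.19% of Bc4 and in 0.425% of all other B cells (57 of 13401). The list was drawn up with earlier results of these data known, so this excess is a description and no test.

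Bc3 was not uniform on this measure. Among thinned Bc3 cells, 646 held no B1 list gene, 506 held 1, 234 held 2 and 171 held 3 or more. Ighd was detected in 47.8%, 28.7%, 11.97% and 8.77% of these classes, Fcer2a in 12.8%, 5.34%, 1.71% and 1.17%, and Vpreb3 in 5.26%, 1.19%, 0.43% and 0. Crip1, which is not in the list, went the other way, from 48.6% to 67.4%, 88.0% and 91.8%, and Ighm went from 64.6% to 69.8%, 70.5% and 71.9%. The classes are ranges of a count, and at 300 counts a cell can hold a gene's message without a count. Their deposited depth differed as well, with medians of 421, 623, 866 and 948 counts per cell before thinning. Cells of all libraries were pooled here. Of the 405 Bc3 cells with 2 or more B1 list genes, 247 came from stroke day 14 replicate 3 and 62 from replicate 2. Those libraries also had the lowest Ighd per 100 Ighm counts in Bc3, 8.98 and 15.9. Whether these trends held within a library was not tested.

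The share of Bc3 cells with 2 or more B1 list genes ranged widely within each group. It was 11.98%, 29.3%, 8.00% and 6.29% in sham replicates 1 to 4, and 3.85%, 50% (4 of 8 cells), 6.90% and 15.8% in stroke day 2 replicates 1 to 4. At day 14 it was 5.08% in replicate 1 (95% Wilson interval 2.99 to 8.49), 32.3% in replicate 2 (26.1 to 39.2) and 51.9% in replicate 3 (47.4 to 56.3). Among the other B cells it was 0 to 1.17% in every library. Intervals cover counting error only.

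Depth moved with this content. The median count of a Bc3 cell, relative to the other B cells of its library, was 0.74, 1.51, 1.05 and 0.84 times in sham, 0.69, 1.33, 1.04 and 0.73 times at stroke day 2, and 0.87, 1.55 and 1.99 times at day 14. The libraries with the 4 highest shares, stroke day 14 replicates 3 and 2, stroke day 2 replicate 2 and sham replicate 2, also had the 4 highest depth ratios. Split by deposited counts and still thinned to 300, the share was 10.9% of 623 Bc3 cells with 300 to under 500 counts, 32.7% of 492 with 500 to under 1000 and 45.6% of 375 with 1000 or more, against 0.28%, 0.44% and 1.63% of the other B cells. Libraries filled these classes unevenly, and stroke day 14 replicate 3 gave 83, 179 and 209 of those Bc3 cells. Its own shares were 41.0%, 55.9% and 53.6%, and those of day 14 replicate 2 were 20%, 26.7% and 42.3%. Sham replicate 1 had 5.88%, 16% and 29.2%, and stroke day 2 replicate 4 had 4.76%, 28% and 25.9%. A further 67 thinned Bc3 cells and 650 other B cells had deposited totals under 300 that reached 300 once rounded gene by gene. They lie in no class of depth. At 300 to under 500 counts alone the libraries still ran from 0 of 95 cells in sham replicate 4 (upper bound 3.89%) to 41.0% of 83 cells in stroke day 14 replicate 3, with stroke day 14 replicate 1 at 3.31% of 181. The part of depth in the differences between libraries was not tested further.

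**Figure D3:**
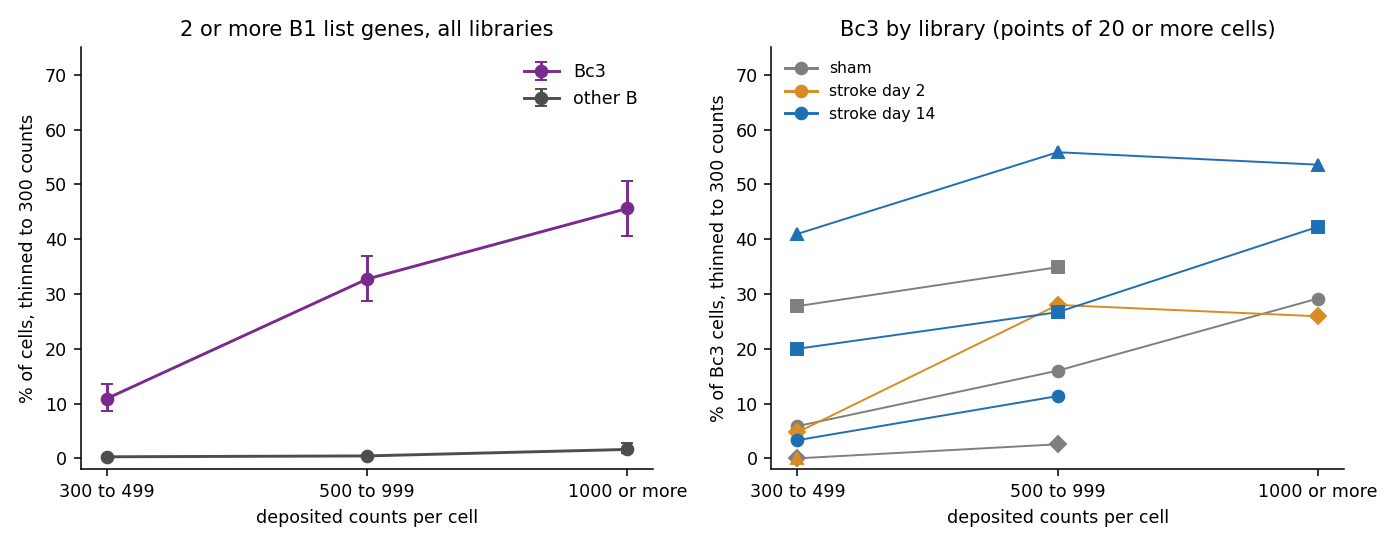
Share of cells, each thinned to 300 counts, with 2 or more B1 list genes (y axis) by deposited counts per cell (x axis). The left panel gives Bc3 and the other B cells over all libraries with 95% Wilson intervals, and the right panel gives Bc3 in each library with at least 20 cells, where the day 14 libraries run from 3.31% to 41.0% in the lowest depth bin; shapes there are replicates 1 (circle), 2 (square), 3 (triangle) and 4 (diamond).

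The first question of the design was whether the Bc3 share of blood differed after stroke. Of B cells, Bc3 made up 9.53%, 5.22%, 3.09% and 11.9% in sham replicates 1 to 4, 7.27%, 3.12%, 1.71% and 9.14% at stroke day 2, and 15.02%, 12.5% and 22.6% at day 14. All 3 day 14 libraries lay above all 8 others, with means of 7.44% ± 4.01 in sham, 5.31% ± 3.48 at day 2 and 16.7% ± 5.3 at day 14 (SD). The difference at day 14 was 9.27 percentage points against sham and 11.4 against day 2, each with an exact two-sided permutation p of 0.0571, the smallest that 3 against 4 libraries can give (adjusted 0.0857 over 3 comparisons). Day 2 against sham differed by -2.13 points with overlapping libraries (exact permutation p = 0.457), and by -0.64 without sham replicate 4, -0.93 without stroke day 2 replicate 3, and -3.58 without sham replicate 3. Each day 2 library lay below the sham library of the same replicate number, and whether those numbers pair the samples is not settled. An edgeR fit within B cells with the replicate number as a block gave a log2 fold change of -0.59 (edgeR adjusted p = 0.434). Libraries are pools, so p-values measure the spread between pools.

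Of all blood cells, Bc3 made up 3.48%, 2.10%, 0.95% and 5.99% in sham, 1.00%, 0.55%, 0.91% and 2.25% at stroke day 2, and 5.78%, 4.11% and 11.3% at day 14. The 13 cells of stroke day 2 replicate 2 give its 0.55% a 95% Wilson interval of 0.32 to 0.94. Day 14 lay above every day 2 library and overlapped sham. The exact two-sided permutation p was 0.0571 for day 14 against day 2, the smallest possible, and 0.171 for each of the other 2 comparisons (all 3 adjusted to 0.171). In an edgeR fit of the cell numbers of 37 blood subtypes, the Bc3 share rose by a log2 fold change of 2.57 ± 0.70 (SE) from day 2 to day 14 (edgeR adjusted p = 0.0181). In that comparison 13 of 37 subtypes (35.1%) passed, so a call was common, while none of the other 6 B subtypes did, at 0.19 to 0.57. Against sham the day 14 fold change was 1.18 ± 0.68 (edgeR adjusted p = 0.266, 21.6% of subtypes called), and day 2 against sham was -1.40 ± 0.65 (edgeR adjusted p = 0.599, 0% called).

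The call from day 2 to day 14 was lost in 3 settings: without stroke day 14 replicate 3 (2.06, edgeR adjusted p = 0.0681), with age in weeks as a covariate (1.72, 0.209) and with cells other than neutrophils as the total (1.68, 0.173). Neutrophils made up 11.7% to 69.6% of cells at day 2 and 11.4% to 22.4% at day 14, and mice averaged 9.75 weeks at day 2 and 8.67 at day 14. Within the B cells alone, the edgeR fold change from day 2 to day 14 was 1.65 ± 0.54 (adjusted p = 0.0693) and from sham to day 14 1.15 ± 0.52 (adjusted p = 0.326), with 0 of 7 subtypes called in each (0%; 1 of 7 each at an unadjusted p under 0.05). The first of these passed without sham replicate 3 (1.65, edgeR adjusted p = 0.0461) and without stroke day 2 replicate 4 (2.11, edgeR adjusted p = 0.0238). With the replicate number as a block both passed (2.29 and 1.70, edgeR adjusted p = 0.000387 and 0.0039), though whether those numbers pair the samples is not settled. With age in weeks as a covariate neither passed (0.95 and 0.97, edgeR adjusted p = 0.890 and 0.478). Both passed when only cells with at least 500 counts entered. Among those deeper cells Bc3 made up 5.97%, 13.1%, 3.45% and 8.26% of B cells in sham, 4.03%, 7.58%, 2.37% and 6.94% at day 2, and 8.88%, 17.1% and 35.7% at day 14, so day 14 replicate 1 lay within the sham range there.

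**Figure D4:**
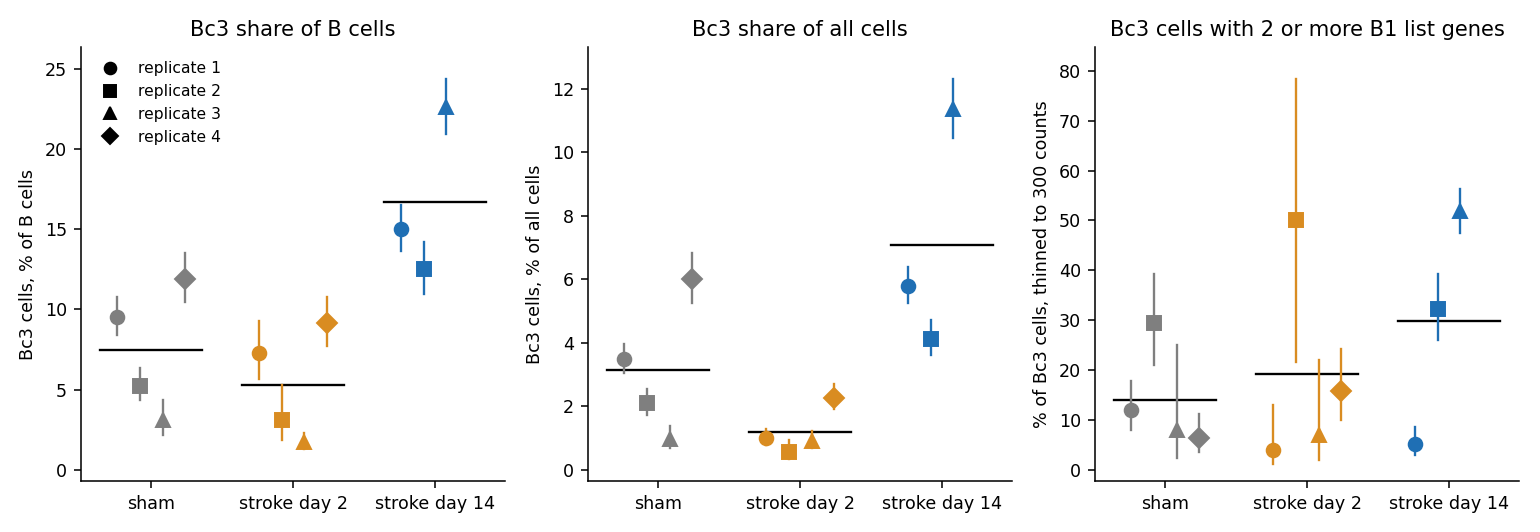
Bc3 as a percentage of B cells (left) and of all blood cells (middle), and the percentage of Bc3 cells, thinned to 300 counts, with 2 or more B1 list genes (right), by group. Each point is a library with its 95% Wilson interval, shapes are replicate numbers and black lines are group means; the 3 day 14 libraries are the highest on the left (12.5% to 22.6%), and day 14 replicate 1 is near the bottom on the right (5.08%).

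Counted together, Bc3 cells with 2 or more B1 list genes made up 0.96%, 2.03%, 0.23% and 0.67% of thinned B cells in sham, 0.26%, 1.41%, 0.12% and 1.31% at stroke day 2, and 0.67%, 4.25% and 12.8% at day 14. Replicates 2 and 3 of day 14 lay above every other library, and replicate 1 lay inside the range of the other groups. The day 14 libraries thus shared a high Bc3 share of B cells without sharing the B1 list content of their Bc3 cells. That shared high share did not hold among cells with at least 500 counts.

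The second question was whether Bc3 cells of each group expressed different genes. Counts were summed over the Bc3 cells of a library, and 2009 genes passed the filter on low counts. At an edgeR adjusted p under 0.05, 0 genes were called in each of the 3 comparisons (0% of 2009). At an unadjusted p under 0.05 there were 57 genes for day 2 against sham, 43 for day 14 against sham and 52 for day 14 against day 2, and DESeq2 also called 0, with 87, 46 and 77 unadjusted. Each of the edgeR numbers is a fraction of the 2009 genes under 0.05, so fewer than chance alone would give. Sums of 17020 to 498558 counts per library limit the test to well-expressed genes.

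Several genes that set Bc3 apart had higher means at day 14, and none passed the test. Tppp3 stood at 111, 194, 520 and 89.1 CPM in sham, 33.8, 52.1 and 447 at day 2 (replicates 1, 3 and 4) and 131, 1029 and 1477 at day 14. Day 14 replicates 2 and 3 were the highest libraries and replicate 1 lay among the others, and the log2 fold change was 2.5 ± 0.71 against sham and 1.93 ± 0.76 against day 2 (SE; edgeR adjusted p = 0.999 and 1.00). With each library left out it ran from 1.92 (without day 14 replicate 3) to 3.02 (without day 14 replicate 1) against sham, and from 1.38 (without day 14 replicate 3) to 4.62 (without day 2 replicate 4) against day 2. Anxa2 stood at 123, 197, 136 and 192 CPM in sham, 0, 0 and 146 at day 2, and 0, 514 and 837 at day 14, with the same split. Its log2 fold change of 1.53 against sham ran from 0.75 without day 14 replicate 3 to 2.05 without replicate 1. Against day 2 it was 2.52, and 1.77 without day 14 replicate 3; without day 2 replicate 4 both remaining day 2 libraries are at 0 and no fold is given. Plac8 stood at 1161, 849, 1332 and 1175 CPM in sham, 978, 1380.4 and 1237 at day 2, and 1428, 1770 and 1853 at day 14. Its log2 fold change was 0.64 ± 0.23 against sham and 0.60 ± 0.26 against day 2 (edgeR adjusted p = 0.999 and 1.00).

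Crip1 had log2 fold changes of 0.61 against sham and 0.89 against day 2, S100a6 0.64 and 1.27, and Tagln2 0.79 and 0.74. Single libraries moved the first 2 genes: without stroke day 14 replicate 3 Crip1 had 0.25 and 0.53 and S100a6 0.11 and 0.75, and without replicate 1 they had 1.04 and 1.31, and 1.10 and 1.73. Over all libraries left out in turn, S100a6 ran up to 2.49 against day 2, without stroke day 2 replicate 4. Ahnak had 0.28 and 0.35, and its sign turned without day 14 replicate 3 (-0.18 and -0.10). All 15 of the highest Bc3 genes had a fold change above 0 at day 14, with a median of 0.49 against sham and 0.89 against day 2, beside 0.00 and 0.03 over all 2009 genes; the 2 comparisons share the day 14 libraries. These 15 genes were ranked on ratios over the same 10 libraries, day 14 included, so their signs are a description and support nothing. At day 2 against sham 5 of 15 were above 0, with a median of -0.27. Of the 13 B1 list genes 7 passed the filter, with medians of 0.64 and 1.21 at day 14 and -0.07 at day 2, and none was called.

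**Figure D5:**
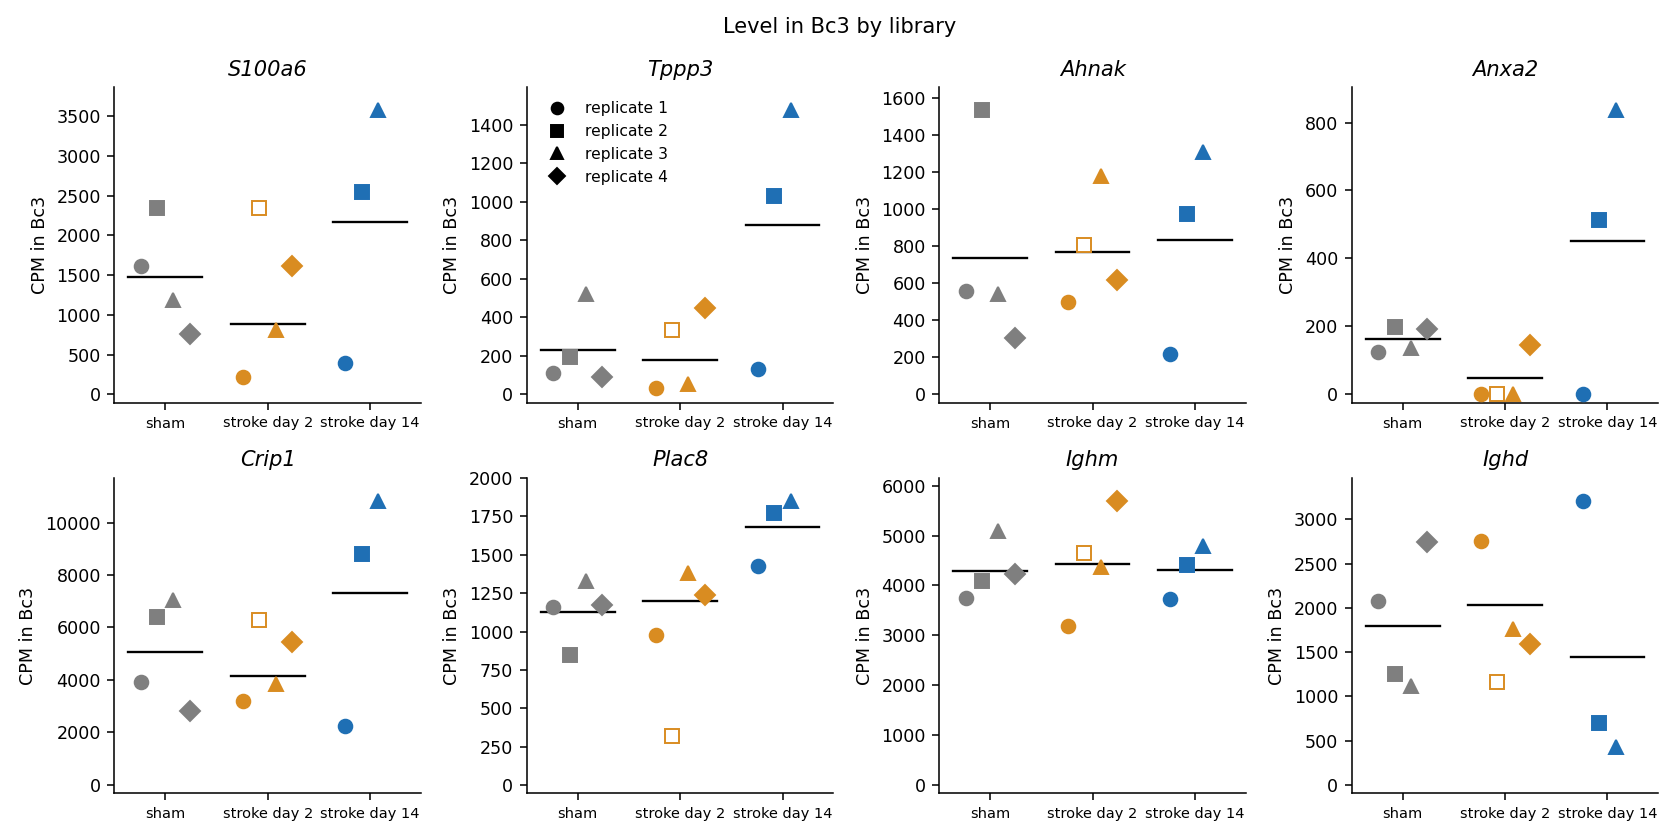
CPM in Bc3 (y axes) of 8 genes by group, with 1 point per library, shapes for replicate numbers and black lines for group means. The open square is stroke day 2 replicate 2, with 13 cells, which is not in the means; day 14 replicate 1 (blue circle) lies apart from replicates 2 and 3 for S100a6, Tppp3, Ahnak, Anxa2, Crip1 and Ighd.

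Ighd also differed between the day 14 libraries. In Bc3 it stood at 2075, 1258, 1120.0 and 2743 CPM in sham, 2755, 1763 and 1590.4 at day 2, and 3212, 700 and 431 at day 14. Replicate 1 of day 14 was the highest of the 10 libraries and replicates 2 and 3 the lowest. The log2 fold change was -0.36 ± 0.51 against sham and -0.45 ± 0.55 against day 2 (edgeR adjusted p = 0.999 and 1.00). It turned on single libraries: without day 14 replicate 3 it was 0.10 and 0.02, and without day 14 replicate 1 it was -1.69 and -1.77 (edgeR adjusted p = 0.0644 and 0.139). Ighm ran from 3195 to 5701 CPM over the 10 libraries, with a fold change of 0.06 at day 14 against sham. Cd79a stood at 619.9 to 884 CPM in sham and 761 to 1019.8 at day 2, and at 854, 557 and 423 at day 14.

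Each comparison was also made without stroke day 14 replicate 1, which leaves 2 libraries at day 14. That library was singled out after its values for these same genes had been seen, so every call made without it, here and in the comparisons that follow, is a description that rests on this choice and supports nothing; the fit of all 10 libraries called 0 of 2009 genes. Against sham 5 of 2044 genes (0.245%) were then called by edgeR. Tppp3 had a log2 fold change of 3.02 (edgeR adjusted p = 0.0090), Anxa2 2.05 (0.0301), Fcer2a -2.35 and Serpinb1a, a protease inhibitor, -1.40 (both 0.0471). The remaining call, the zinc finger gene Zfp811, is not among the 2009 genes that passed the filter with all 10 libraries, and passed here through the 2 libraries where it was high. It stood at 218 and 269.6 CPM in day 14 replicates 2 and 3, at 0 in replicate 1, and at 0 to 36.9 in the sham and day 2 libraries. Against day 2, 1 gene was called (0.0489%), Anxa2 (3.02, edgeR adjusted p = 0.0315). With replicate 1 kept and no filter on low counts, Tppp3, Anxa2 and Zfp811 were called against sham, and these 3 with S100a6 and Tppp against day 2.

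Whether Bc3 responded differently from the other B cells was tested with library as a term. The difference of the 2 responses was called for 0 of 7936 genes in each comparison (0%; 336, 366 and 406 at an unadjusted p under 0.05), and DESeq2 was not run on it. Ighd had a difference of -0.69 ± 0.27 at day 14 against sham and -0.70 ± 0.30 against day 2 (edgeR adjusted p = 0.998 and 0.878). Without TMM scaling, which moves the median over all genes from 0.28 to -0.01 in the second comparison, Ighd was called in both (-0.91 and -1.03, edgeR adjusted p = 0.00023 and 0.000112). Without day 14 replicate 1, Ighd, Fcer2a and Pkib, an inhibitor of protein kinase A, were called lower against sham (-1.47, -2.32 and -2.90) and Ighd against day 2 (-1.47).

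Summing all B cells of a library removes the subtype labels from the comparison. In these sums 1 of 8762 genes was called at day 14 against sham and against day 2 (0.0114% each), the predicted gene Gm39321 (-6.80 and -7.45 on the log2 scale), which is also the 1 of 8430 (0.0119%) called in the other B cells. The call against sham was lost without stroke day 14 replicate 3, and DESeq2 called Gm39321 alone against sham, of 15796 genes (0.00633%). Against day 2 DESeq2 gave Gm39321 -7.25 and no adjusted p, since its own filter on low means left 4801 of 16623 genes to adjust. Of those 4801 it called 6 (0.125%) with all libraries kept: Cd2 (0.89), Crip1 (1.45), Plac8 (1.28) and Tagln2 (1.54) were higher at day 14, and Ppp1r21 (-1.57) and Zfp36l2 (-1.84) lower (log2 fold changes, DESeq2 adjusted p = 0.000231 to 0.0362). The edgeR fit of the same libraries called none of these 6. Without day 14 replicate 1, the choice made after seeing these genes, 6 genes were called higher at day 14 against sham, among 7 of 9049 called in all (0.0774%): Crip1, S100a4, Tagln2, Tppp3, Vim and Zfp811. With any other library left out at most 1 gene was called against sham. Without replicate 1 the log2 fold change of Crip1 was 1.62 ± 0.23, of Tagln2 1.76 ± 0.19, of Vim 1.71 ± 0.24 and of Tppp3 4.71 ± 0.62 (edgeR adjusted p = 0.0104, 0.0032, 0.0103 and 0.0079). Against day 2, 15 genes were called (0.166%), 14 of them higher, among them Ahnak, Cd44, Lgals1, Myadm, Pdlim1 and S100a6. Such sums hold the Bc3 share, the counts per Bc3 cell and the level within each cell. A median Bc3 cell held 0.87, 1.55 and 1.99 times the counts of a median other B cell at day 14. In the sham and day 2 libraries it held 0.69 to 1.51 times. The separate fits of all libraries give the levels. At day 14 against sham, Crip1 had 1.22 in all B cells, 0.61 in Bc3 and 0.20 in the other B cells, and Tagln2 1.41, 0.79 and 0.47. None of these was called by edgeR. How much of the value in all B cells came from the share or from the counts per cell was not tested.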

How the data were processed

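The authors deposited expected counts per gene and cell, which are not whole numbers, and the labels do not say which step made them fractional. The submitters' processing notes name Seurat and mm10, with no version; aligner and annotation are not given in the sources used here. Deposited metadata give each cell's summed counts, detected genes, percent of mitochondrial counts and the authors' labels. Gene symbols were used as deposited, and no coordinates are printed.

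Counts were summed per library over Bc3 and over the other B cells and rounded. Groups were compared by edgeR 4.0.16, quasi-likelihood F test (TMM scaling, filterByExpr, all 3 groups in 1 fit, Benjamini-Hochberg adjustment over the genes fitted, called under 0.05), and alternatives included DESeq2 1.42.0. Shares were compared by exact permutation and by edgeR on cell numbers with the cell total as library size. CPM divide by the summed counts of the cells, and log2 ratios add 20 CPM. Cells were thinned without replacement to 300 rounded counts. The fits were tested on simulated data.

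Named genes for Bc3 against the other B cells are the 15 highest and 15 lowest mean ratios with at least 50 CPM on either side and the same sign, by more than 0.001, in all 10 libraries. Predicted, mitochondrial, ribosomal, haemoglobin and variable segment genes, and genes over 10 times higher in another blood type, were not named. Zfp811, Serpinb1a, Pkib, Tppp, S100a4, Cd2, Ppp1r21 and Zfp36l2 are named because an alternative called them, and Gm39321 as a single called gene; these were chosen after their values were seen. Members and lists were chosen with earlier results of these data known.

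Scrublet (scanpy 1.11.5) marked 13 of 51709 cells and 0 Bc3, too few to serve as a doublet filter. So the 5% highest scores per library were left out instead, as an alternative chosen after seeing the data; they held 6.27% of Bc3 and 3.91% of other B cells. Other alternatives chosen after seeing the data were age in weeks as a covariate, all 11 libraries in the expression fits, the edgeR fit within B cells, and all B cells summed.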

Additional observations from a re-analysis of the deposited data

Results flagged for a closer look

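In groups of 4 libraries, the highest or lowest library was set against the other 3 by Dixon's test at its 95% critical value, for 49 quantities, and 3 stood out; chance alone marks about 1 in 20. The median mitochondrial percentage of Bc3 cells was 3.69% in sham replicate 1 and 4.84% to 4.96% in the other 3 sham libraries. The other B cells of sham replicate 1 had 3.45%. Lmna, the nuclear lamin A/C, stood at 310.0 CPM in Bc3 of sham replicate 2 and at 17.6 to 44.4 in the other sham libraries. Ptms, a small acidic nuclear protein, stood at 308 CPM in sham replicate 2 and at 95.3 to 111 in the others. Sham replicate 2 also held the highest sham levels of S100a6, Ahnak, Itgb1 and Ccnd2 in Bc3.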

How the results depend on the processing

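The Bc3 share of all cells from day 2 to day 14 kept its direction in every setting run, at 2.06 to 3.09 on the log2 scale with each library left out. It was no longer called with age as a covariate (1.72), with non-neutrophil cells as the total (1.68) or without stroke day 14 replicate 3 (2.06). Within B cells the day 14 fold changes passed among cells with at least 500 counts (1.45 against sham, 2.06 against day 2), and with each library left out the second ran from 1.29 to 2.11. Day 2 against sham turned to 0.018 there with age as a covariate.

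The correlations did not settle whether the replicate numbers pair the samples. Same-numbered libraries deviated from their group means with correlations of -0.18 to 0.39, and different-numbered libraries with -0.39 to 0.31. With the replicate block the shares within B cells were called (1.70 and 2.29), Ahnak at day 14 turned to -0.15 and -0.51, and 0 genes were called in Bc3.

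In Bc3 expression, no filter on low counts gave 3 genes called against sham and 5 against day 2 at day 14, and leaving out each library gave 0 to 5 and 0 to 1. The difference between responses gave 1 and 1 without TMM, and 0 to 3 and 0 to 1 with each library left out. The largest of the leave-one-out counts came without stroke day 14 replicate 1. In all B cells summed, day 14 against day 2 gave 1 gene by edgeR, 6 by DESeq2 and 3 with the replicate block (0 against sham), and leaving out each library gave 1 to 15. With each library left out Ahnak ran from -0.18 to 0.96 against sham and -0.10 to 0.79 against day 2, and Ighd from -1.69 to 0.10 and -1.77 to 0.016.

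Of the 26 genes higher and 45 lower in Bc3 by the fold and sign rule, the counts became 56 higher from pooled CPM, which drops the rule on signs per library, 14 higher after thinning, 181 higher and 95 lower against Bc7 alone, 24 lower against Bc4 and 25 lower against Bc6. With each library left out the lower genes numbered 36 to 81, the highest without stroke day 14 replicate 1. Against Bc7 the ratio turned for Ccnd2 (-0.76), Zfp608 (0.24), Akap12 (0.17), Cd200 (0.13) and Icosl (0.96). The cause of these shifts was not tested.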
